A study of Mus musculus with 10 samples.

Results

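The p53 target genes described here are 33 in all, Trp53, which encodes the tumour suppressor p53, and genes known from other work to respond to it or to hold it in check. They were taken by gene symbol and found by Ensembl identifier in the annotation of GRCm39, and all 33 were present among the 78298 genes of the deposited table and passed the filter on low counts, which kept 16700 genes. Transcripts were measured by bulk RNA sequencing of whole hearts from female mice on a C57BL/6J background. All 10 hearts were collected 72 h after a single intraperitoneal dose of 30 mg/kg doxorubicin, an anthracycline that traps topoisomerase II on DNA. 5 libraries carried the genotype label wild type and 5 the label p38δ knockout, a germline deletion of the stress-activated kinase encoded by Mapk13. Neither the ages of the mice nor the deleted part of the gene is stated in the labels. No heart without doxorubicin was analysed here, so induction of these genes by the drug was not measured, and each comparison is between genotypes after the drug.

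p53 is a transcription factor that is held low by its own target Mdm2 and released when DNA is damaged. It then drives genes that stop the cell cycle, repair DNA, restrain growth signalling or promote cell death, and doxorubicin is a strong activator of this response in cardiac muscle. Kinases of the p38 family can phosphorylate p53. Which of the targets differed in level with the p38δ label is the question the comparison addresses.

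No member of the group passed the test between the labels. Of the 33 members, 0 passed an adjusted p of 0.05 in edgeR's quasi-likelihood test over all genes, against 0.353% of the 16700 genes tested. DESeq2 also called 0 of the 33, against 0.707% of all genes tested. Before adjustment, 4 of the 33 had a p under 0.05 by edgeR, or 12.1%, against 6.86% of all genes tested. That number was 0 of 33 without wild-type-labelled library 1, where 6.02% of all genes had such a p, and also 0 of 33 without wild-type-labelled library 3 (6.76%) and with 1 surrogate variable in the fit (6.81%). With all libraries the 4 were Sesn2, Zmat3 and Phlda3, with lower means in the knockout-labelled hearts, and Rrm2b, with a higher mean. In 0 of the 33 members did the CPM values, counts scaled to library size, of one label lie wholly above those of the other, a separation seen in 1.78% of all genes tested. The members' median log2 fold change, knockout-labelled against wild-type-labelled, was -0.10, with 23 members below 0 and 10 above, beside a median of -0.01 over all genes tested, of which 53.4% lay below 0. Under scaling by library totals alone the members' median was -0.20 and that of all genes -0.12, with 75.05% of all genes below 0.

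The facts of the libraries that touch these genes are the following. Library totals ranged from 21403189 to 40627138 counts. Mapk13 held 292, 5, 2, 1 and 4 counts in wild-type-labelled libraries 1 to 5 and 12, 10, 10, 15 and 9 counts in knockout-labelled libraries 1 to 5, so it did not separate the labels. Which part of the gene the reads came from is unknown, and the labels could not be checked by it. Its fitted log2 fold change was -1.76 ± 1.23 (SE; adjusted p = 0.78 by edgeR). Without wild-type-labelled library 1 this turned to 2.13 (adjusted p = 0.0443 by edgeR), and with all 10 libraries it was 0.65 by limma voom, 1.796 with quality weights and 2.29 with 1 surrogate variable, none of these 3 called. Every direction in the text is therefore one between labels. As to the tissue, the 8 ventricular cardiomyocyte markers summed to between 18307 and 51031 CPM per library. Both of those extremes belong to libraries that stand apart below, wild-type-labelled library 1 at the low end and knockout-labelled library 4 at the high end. All 6 airway and alveolar markers were highest in wild-type-labelled library 1, where they summed to 963 CPM, against 83.0 CPM in wild-type-labelled library 3 and at most 3.49 CPM in the others. The 5 skeletal muscle markers, all highest there too, summed to 481 CPM in that library and to at most 8.95 CPM in the other 9. Atrial cardiomyocyte markers summed to 1347 CPM there and to between 47.9 and 298 CPM elsewhere, and mesothelial and epicardial markers to 107 CPM there and to between 14.3 and 35.3 CPM elsewhere, with all 7 markers of each list highest in that library. All 7 mesothelial markers also had log2 fold changes below 0, 6 of them with an unadjusted p under 0.05 by edgeR and 0 called. The 6 atrial markers tested likewise all lay below 0, 4 of them with such a p and 0 called. So did the 4 skeletal muscle markers tested, 3 of them with such a p and 0 called. All 8 ventricular markers lay above 0, 0 of them with such a p. Counts over the members are given below with and without these libraries, and the plot of fold changes shows every member both ways.

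A shared sequence feature of p53 targets is the response element, a pair of p53 decamer half-sites with a short spacer. The genome of the files' build, GRCm39, was searched on both strands for exact matches to the consensus half-site in pairs with a spacer of 0 to 13 bases, within 5 kb on either side of each gene's canonical start site. Such a pair was found for 6 of 33 members, or 18.2%, and in 3.29% of the windows of 13343 tested protein-coding genes. The 6 were Cdkn1a, Trp53inp1, Ddit4, Zmat3, Pidd1 and Fbxw7. Matched pairs are called elements here. Those of the 4 members whose levels are described most closely below are printed 5′ to 3′ on the strand of the gene. Half-sites are in capitals and the spacer in lower case.
Cdkn1a: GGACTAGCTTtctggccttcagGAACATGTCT
Trp53inp1: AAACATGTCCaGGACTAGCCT
Ddit4, nearer: AGACTTGCCTGGACTAGTCT
Ddit4, farther: AAGCATGTCCAGGCTAGCCC
Zmat3: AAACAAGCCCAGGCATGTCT

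The Cdkn1a element lies just before the gene's first annotated base, at chr17:29309880-29309911 on the plus strand, 2842 bases upstream of the canonical start, where the annotation has an exon of the gene model Gm64878 on the opposite strand. That of Trp53inp1 lies at chr4:11155112-11155132 on the plus strand, 1290 bases upstream, in an exon of the gene model Gm69016 on the opposite strand. The pair of Ddit4 elements, each with half-sites that abut, lie at chr10:59784324-59784343, 3328 bases downstream of the start, and at chr10:59792283-59792302, 4630 bases upstream, on the minus strand and outside annotated genes. The Zmat3 element lies at chr3:32418480-32418499 on the minus strand, 1418 bases downstream of the start, in an annotated exon of Zmat3. Fbxw7 had 1 further pair 3668 bases upstream, and Pidd1 had pairs 1470 bases upstream and 708 bases downstream. A match describes letters in a window and is not evidence of binding, nor need it be the element that p53 uses at that gene. The absence of a match in the other 27 members says nothing of p53 at those genes.

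Levels of the members spanned a wide range in these hearts. Per kilobase of merged exons, Ccng1, which encodes the atypical cyclin G1, had the highest mean level over the 10 hearts, at 121 CPM per kb. It was followed by Perp, a membrane protein of cell junctions and apoptosis, at 60.8 CPM per kb, and by Sesn1, a stress-inducible inhibitor of mTORC1 signalling, at 30.1 CPM per kb. The lowest were Pidd1, a scaffold for caspase-2 activation, at 0.149 CPM per kb, and Psrc1, a spindle-associated protein, at 0.167 CPM per kb. Trp53 itself stood at 1.16 CPM per kb, below most of its targets.

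**Figure D1:**
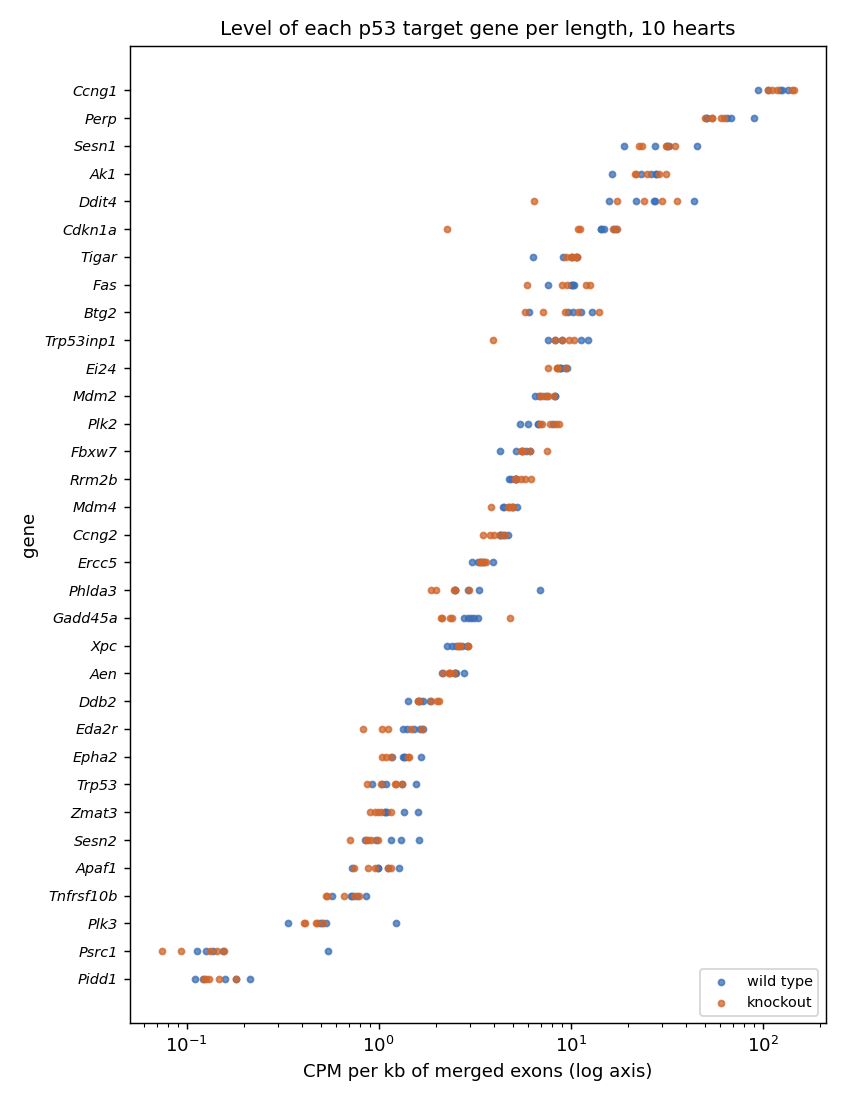
Level of each p53 target gene in each of the 10 hearts, as CPM per kb of merged exons on a log axis, with genes ordered by their mean and 1 point per library coloured by label. Ccng1 lies at the top with a mean of 121 CPM per kb and Pidd1 at the bottom with 0.149 CPM per kb, and single points lie far to the left for Cdkn1a and Ddit4 and to the right for Phlda3, Plk3 and Psrc1.

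Trp53, Mdm2 and Mdm4, the loop of p53 and its regulators, had log2 fold changes between -0.07 and 0.00. Trp53 stood at 11.5, 9.74, 7.68, 6.78 and 8.10 CPM in wild-type-labelled libraries 1 to 5 and at 7.55, 9.79, 6.43, 8.95 and 9.07 CPM in knockout-labelled libraries 1 to 5. The groups overlapped, with a log2 fold change of -0.07 and a 95% interval of -0.42 to 0.28, and without wild-type-labelled library 1, the highest, it was 0.05. Without that library and knockout-labelled library 4, all 3 genes lay above 0, between 0.01 and 0.07. Mdm2, the ubiquitin ligase that degrades p53 and is its direct target, stood at 56.7, 52.9, 63.8, 50.5 and 64.0 CPM in the wild-type-labelled and at 58.6, 53.6, 58.3, 54.6 and 62.9 CPM in the knockout-labelled libraries. Its means were 57.6 ± 6.18 and 57.6 ± 3.71 CPM (SD, n = 5 each), and the interval of its log2 fold change ran from -0.18 to 0.18. Mdm4, a relative of Mdm2 that binds and restrains p53, had means of 97.6 ± 7.24 and 95.6 ± 9.71 CPM. Its lowest value of all 10 was 78.7 CPM in knockout-labelled library 4. Per length of merged exons, the level of Mdm2 was between 1.38 and 1.86 times that of Mdm4 in every heart, although its CPM was lower. That ratio rests on annotated lengths of 7709 bases for Mdm2 and 20386 bases for Mdm4. Which transcript forms were expressed was not determined.

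Cdkn1a, which encodes the cyclin-dependent kinase inhibitor p21 and is the best known p53 target, had the widest spread within labels of all members. It stood at 102, 87.2, 89.7, 104 and 87.2 CPM in wild-type-labelled libraries 1 to 5. In knockout-labelled libraries 1 to 5 it stood at 100.3, 67.4, 65.9, 13.7 and 105 CPM. The wild-type-labelled hearts lay close together, and the knockout-labelled ones fell into a pair within or just above that range, a pair below it and library 4 far below both. The means were 94.0 ± 8.28 and 70.5 ± 36.6 CPM (SD, n = 5 each), with a log2 fold change of -0.42 ± 0.40 SE that did not pass (adjusted p = 0.849 by edgeR). Without knockout-labelled library 4 the log2 fold change was -0.15 (adjusted p = 0.849), and without wild-type-labelled library 1 as well it was -0.11.

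The other cell cycle and growth genes had log2 fold changes on both sides of 0. Gadd45a, a growth arrest gene induced by DNA damage, stood at 4.94, 5.34, 5.19, 5.82 and 5.58 CPM in the wild-type-labelled and at 3.78, 3.73, 4.28, 8.56 and 4.19 CPM in the knockout-labelled libraries. Knockout-labelled libraries 1, 2, 3 and 5 lay below all 5 wild-type-labelled ones, and library 4 lay above them all. The log2 fold change was -0.13 over all hearts and -0.43 without knockout-labelled library 4, where the adjusted p was 0.339 by edgeR. Without wild-type-labelled library 1 as well it was -0.45 with an adjusted p of 0.196, the lowest of any member under any setting tried. Plk2, a polo-like kinase, had means of 33.9 ± 5.24 and 39.8 ± 3.98 CPM, a log2 fold change of 0.23 ± 0.11 SE that did not pass and was 0.13 without both libraries. Its relative Plk3 had 1.86 ± 1.06 and 1.37 ± 0.13 CPM, and Psrc1 had 0.83 ± 0.71 and 0.46 ± 0.13 CPM. The wild-type SDs of Plk3 and Psrc1 came from library 1, at 3.71 and 2.09 CPM against at most 1.60 and 0.59 CPM in the other wild-type-labelled libraries. Without that library their log2 fold changes went from -0.46 to -0.05 and from -0.86 to -0.14. Ccng1 had 516 ± 73.2 and 548 ± 78.4 CPM, and Ccng2, another unconventional cyclin, had 26.0 ± 0.98 and 23.6 ± 2.48 CPM. Btg2, an antiproliferative gene, had 63.0 ± 16.0 and 59.3 ± 20.2 CPM, and Fbxw7, the substrate receptor of a ubiquitin ligase, 43.8 ± 5.82 and 49.1 ± 6.66 CPM. Without both libraries the log2 fold change went from 0.09 to -0.04 for Ccng1, from -0.09 to -0.28 for Btg2 and from 0.17 to 0.01 for Fbxw7. Of these 9 genes, Cdkn1a included, 6 had log2 fold changes below 0 and 3 above, and without both libraries 7 lay below and 2 above.

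**Figure D2:**
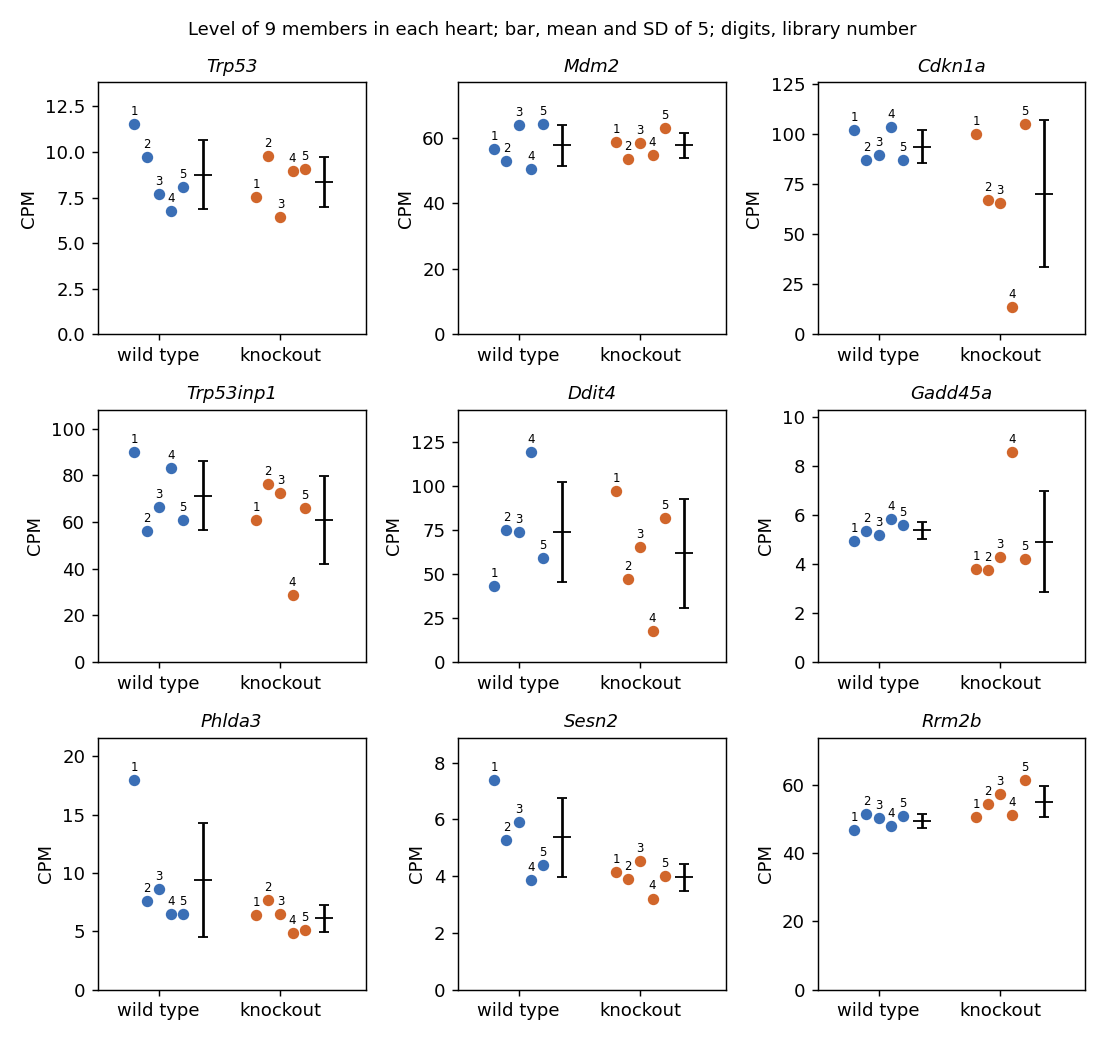
CPM of 9 members in each heart, with 1 point per library, the digit giving the library number within its label, and the black bar the mean and SD of 5. Knockout-labelled library 4 is lowest for Cdkn1a at 13.7 CPM, Trp53inp1 at 28.9 CPM and Ddit4 at 17.4 CPM and highest for Gadd45a at 8.56 CPM, and wild-type-labelled library 1 is highest for Phlda3 at 18.01 CPM and Sesn2 at 7.40 CPM.

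Among the 10 cell death genes 9 had log2 fold changes below 0, and over all 10 these ran from -0.63 to 0.02, with 0 called. Without wild-type-labelled library 1 and knockout-labelled library 4, 6 lay below 0 and 4 above, from -0.20 to 0.10. Trp53inp1, a stress-induced cofactor of p53, stood at 90.1, 56.3, 66.4, 83.3 and 60.9 CPM in the wild-type-labelled and at 61.1, 76.2, 72.3, 28.9 and 65.9 CPM in the knockout-labelled libraries. Apart from library 4, the knockout-labelled values lay inside the wild-type-labelled range, and the log2 fold change went from -0.23 to -0.05 without that library. Phlda3, a repressor of Akt signalling, stood at 18.01, 7.57, 8.67, 6.45 and 6.48 CPM in the wild-type-labelled and at 6.41, 7.68, 6.47, 4.87 and 5.15 CPM in the knockout-labelled libraries. Wild-type-labelled library 1 was the high one, and without it the log2 fold change went from -0.63 ± 0.28 SE to -0.26 (adjusted p of 0.714 and 0.875 by edgeR).

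The death receptor gene Fas stood at 17.8, 23.7, 23.7, 24.2 and 23.4 CPM in the wild-type-labelled and at 27.9, 20.9, 22.2, 13.8 and 29.1 CPM in the knockout-labelled libraries. Its lowest hearts were library 1 of the first label and library 4 of the second. Eda2r, a receptor of the tumour necrosis factor family that binds ectodysplasin A2, had 11.4 ± 1.13 and 9.20 ± 2.56 CPM, with the lowest value, 6.23 CPM, in knockout-labelled library 4, and a log2 fold change of -0.32 ± 0.17 SE. Without that library its log2 fold change was -0.20. The death receptor gene Tnfrsf10b had 4.15 ± 0.58 and 3.73 ± 0.66 CPM, and its log2 fold change went from -0.16 to -0.03 without both libraries. Perp had 131 ± 32.4 and 113 ± 10.5 CPM, with 181 CPM in wild-type-labelled library 1, and a log2 fold change of -0.20 that was -0.05 without it. The remaining 4 genes had log2 fold changes between -0.16 and -0.08, of which those of Apaf1 and Pidd1 were 0.10 and 0.03 without both libraries. They were Apaf1, the core of the apoptosome (10.8 ± 2.15 and 10.3 ± 1.79 CPM), the nuclease gene Aen (28.3 ± 2.56 and 26.4 ± 1.28 CPM), Ei24, which encodes an endoplasmic reticulum membrane protein (62.9 ± 2.47 and 59.1 ± 4.48 CPM), and Pidd1 (0.81 ± 0.22 and 0.73 ± 0.12 CPM).

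All 4 DNA repair genes had log2 fold changes above 0, between 0.02 and 0.16, except that Ercc5 was at -0.10 under scaling by library totals and at -0.02 without wild-type-labelled library 2, and 0 of them were called. Rrm2b, the p53-inducible subunit of ribonucleotide reductase that supplies nucleotides for repair, stood at 46.8, 51.4, 50.2, 47.9 and 50.8 CPM in the wild-type-labelled and at 50.6, 54.4, 57.1, 51.2 and 61.5 CPM in the knockout-labelled libraries. The labels overlapped between 50.6 and 51.4 CPM, with 3 knockout-labelled hearts above all wild-type-labelled ones. Its log2 fold change was 0.15 ± 0.07 SE (adjusted p = 0.715 by edgeR; two-sided exact permutation test, unadjusted p = 0.0397, where the smallest p this design allows is 0.00794). The direction was the same without wild-type-labelled library 1 and knockout-labelled library 4, at 0.16. Ddb2, which recognises ultraviolet damage, had 7.18 ± 0.69 and 8.0 ± 0.93 CPM. Xpc, the lesion sensor of nucleotide excision repair, had 18.2 ± 1.74 and 19.4 ± 1.18 CPM. Ercc5, an endonuclease of the same pathway, had 22.5 ± 2.20 and 22.9 ± 0.61 CPM.

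The metabolism, stress and signalling genes included both of the remaining members with a low unadjusted p. Sesn2, a leucine sensor and inhibitor of mTORC1, stood at 7.40, 5.27, 5.90, 3.85 and 4.40 CPM in the wild-type-labelled and at 4.13, 3.91, 4.52, 3.21 and 4.01 CPM in the knockout-labelled libraries. The upper 3 wild-type-labelled hearts lay above every knockout-labelled heart and the lower 2 among them. Its log2 fold change was -0.45 ± 0.18 SE (adjusted p = 0.693 by edgeR; exact permutation test, unadjusted p = 0.0714), and -0.24 without wild-type-labelled library 1 and knockout-labelled library 4. Zmat3, a zinc finger RNA-binding protein, stood at 18.4, 12.4, 15.5, 12.4 and 12.6 CPM in the wild-type-labelled and at 11.3, 13.3, 10.3, 10.996 and 11.8 CPM in the knockout-labelled libraries. The labels overlapped through knockout-labelled library 2. Its log2 fold change was -0.31 ± 0.13 SE (adjusted p = 0.699 by edgeR; exact permutation test, unadjusted p = 0.0556), and -0.18 without those libraries.

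Ddit4, which encodes the mTORC1 inhibitor REDD1, stood at 43.1, 74.7, 73.5, 119 and 59.1 CPM in the wild-type-labelled and at 96.9, 47.2, 65.4, 17.4 and 81.6 CPM in the knockout-labelled libraries. Its values ranged over 6.84-fold between hearts, from knockout-labelled library 4 to wild-type-labelled library 4, and the log2 fold change of -0.26 had a 95% interval of -1.15 to 0.63. Without the lowest of those libraries, and likewise without the highest, it was -0.02. Sesn1 had 157 ± 48.6 and 146 ± 27.2 CPM, and per length its level was 11.6 to 53.7 times that of Sesn2, lowest in wild-type-labelled library 1. Tigar, a fructose bisphosphatase that restrains glycolysis, had 62.3 ± 12.2 and 67.5 ± 3.48 CPM, and the adenylate kinase gene Ak1 had 243 ± 47.8 and 258 ± 43.1 CPM. Wild-type-labelled library 1 was the lowest heart for Sesn1, Tigar and Ak1. The receptor tyrosine kinase gene Epha2 had 6.46 ± 0.82 and 5.75 ± 0.87 CPM. Of these 7 genes, 5 had log2 fold changes below 0 and 2 above, and without wild-type-labelled library 1 and knockout-labelled library 4 all 7 lay below, from -0.24 to -0.01.

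**Figure D3:**
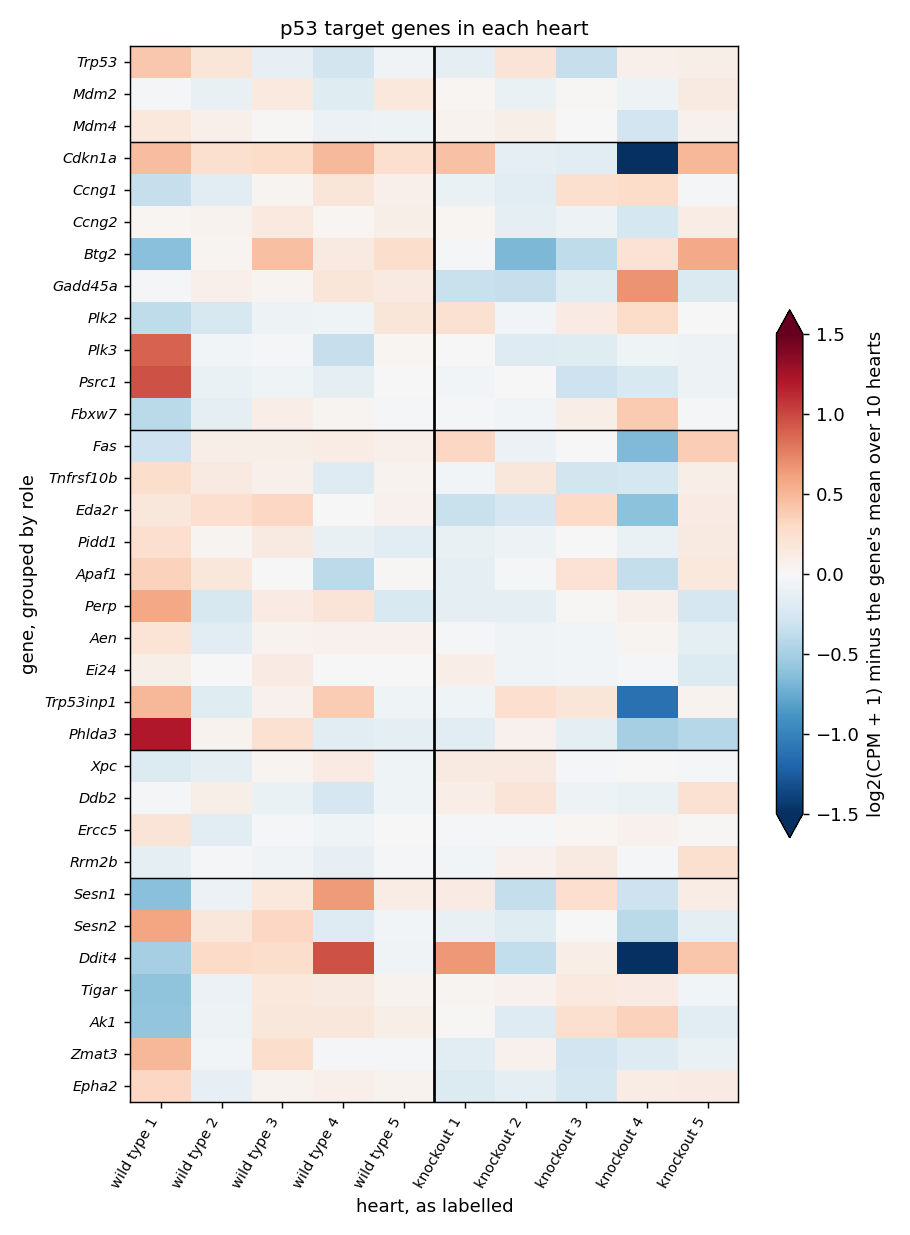
Level of the 33 members in each of the 10 hearts as log2(CPM + 1) minus the gene's own mean, with genes grouped by role, wild-type-labelled hearts on the left of the vertical line and knockout-labelled hearts on the right; colours end at 1.5 in either direction. The columns that stand out are wild-type-labelled library 1, which is highest for 15 members and lowest for 8, and knockout-labelled library 4, which is highest for 5 and lowest for 9.

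Over the members, 1 library stood out in each label. Wild-type-labelled library 1 was the highest of the 10 for 15 members, or 45.5%, and the lowest for 8, or 24.2%, where over all genes tested it was highest for 27.8% and lowest for 22.5%. In that heart Psrc1, Plk3, Phlda3, Perp and Sesn2 were more than 1.5-fold above the mean of the other 4 wild-type-labelled hearts, and Btg2, Ddit4, Sesn1, Tigar and Ak1 more than 1.5-fold below it. Psrc1 stood there at 409% of that mean, a ratio reached by 3.36% of all genes tested. Sesn2, the least raised of those above, stood at 152%, a ratio reached by 18.1% of all genes tested. Ak1, the least lowered of those below, stood at 62.3%, and 7.86% of all genes tested were as low or lower. The 6 macrophage markers, all highest in this library, summed to 500.4 CPM there and to between 113 and 176 CPM in the other 9. The 6 fibroblast markers were likewise all highest there, at 1458 CPM against 660.3 to 896 CPM. Whether RNA from those cells, or from the airway, skeletal muscle, atrial or mesothelial cells whose markers were high there, had a part in its p53 target levels was not tested, and in bulk tissue fewer cells of a type and less RNA per cell cannot be told apart.

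Knockout-labelled library 4 was the lowest of the 10 hearts for 9 members, or 27.3%, against 17.8% of all genes tested. It was the highest for 5, or 15.2%, against 16.6% of all genes tested. Those lowest were Cdkn1a, Ddit4, Trp53inp1, Fas, Eda2r, Mdm4, Ccng2, Phlda3 and Sesn2, and those highest were Gadd45a, Ccng1, Plk2, Fbxw7 and Ak1. Cdkn1a stood there at 16.1% of the mean of the other 4 knockout-labelled hearts, and 0.701% of all genes tested were as low or lower in that heart. Ddit4 was at 23.9% and Trp53inp1 at 42.0% of that mean, and 1.32% and 4.02% of all genes tested were as low. For the rest of the 9 lowest members that share ran from 7.35% for Fas to 26.6% for Ccng2. Mdm2 at 54.6 CPM, Trp53 at 8.95 CPM and Zmat3 at 10.996 CPM lay within the range of the other hearts in the same library, so its low values did not extend to every member. Of the 8 ventricular markers 6 were highest in this library, whose endothelial markers summed to 569.9 CPM, inside the range of the other libraries. The part of cell makeup in its low values was not tested.

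With both of these hearts left out, 13 members lay above 0 and 20 below. Their median log2 fold change was then -0.06 and 0 of 33 were called, where 0.521% of the genes were called in that fit. 2 members then had an unadjusted p under 0.05 by edgeR, Gadd45a and Rrm2b, in a fit where 7.80% of all genes did.

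**Figure D4:**
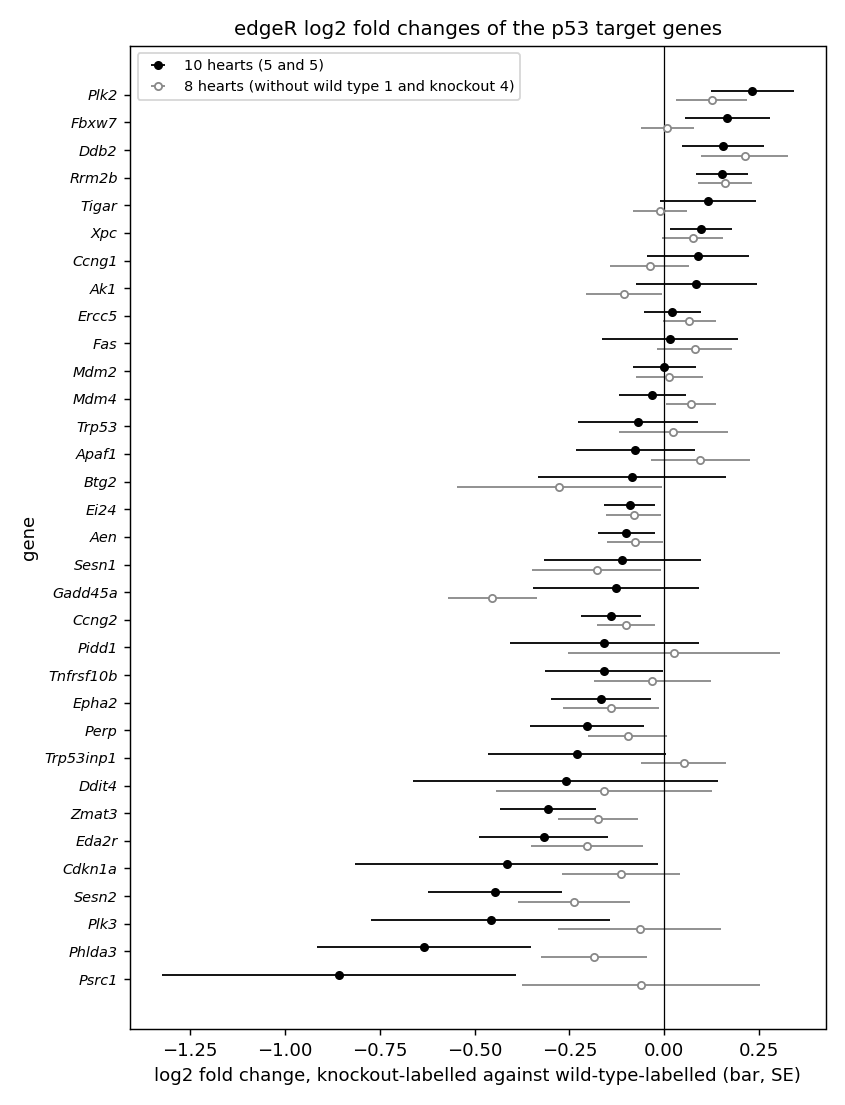
edgeR log2 fold change of each member, knockout-labelled against wild-type-labelled, with SE bars, for all 10 hearts (filled) and for 8 hearts without wild-type-labelled library 1 and knockout-labelled library 4 (open). Psrc1, Phlda3, Plk3 and Cdkn1a move toward 0 when these hearts are left out, and Gadd45a moves from -0.13 to -0.45.

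Cdkn1a is the 1 member on chromosome 17, the chromosome of Mapk13. It runs from 29309936 to 29319701 on the plus strand of GRCm39, and it lies 322 kb from Mapk13, as measured here between the lowest coordinates of genes. Within 500 kb, 21 genes were tested, Cdkn1a and Mapk13 included, and 1 was called, against 0.353% of all genes tested. The called gene was the peptidyl-prolyl isomerase gene Ppil1, which rose from 8.40 ± 1.12 to 17.5 ± 2.27 CPM (SD, n = 5 each). Its log2 fold change was 1.06 ± 0.12 SE, with an adjusted p of 9.9e-04 by edgeR, and it lies 160 kb away. The noncoding gene Gm64692, with a log2 fold change of 1.02, overlaps Ppil1 on the other strand, and their reads cannot be told apart. The nearest protein-coding neighbour tested, the splicing factor gene Srsf3, had 109 ± 5.06 and 104 ± 9.15 CPM. In this window Pim1, Pi16 and BC004004 had log2 fold changes of -0.45, 0.47 and 0.43, none of which passed, and Tbc1d22b, Mtch1, Mapk14, Brpf3, Stk38 and Kctd20 lay between -0.01 and 0.25. The labels did not overlap for Ppil1, Pim1 and BC004004, a separation seen in 1.78% of all genes tested. Slc26a8, Fgd2 and Cpne5, at 1.12 CPM or less in each label's mean, had -0.42, -0.77 and -1.36 with SEs of 0.30 to 0.94.

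A pair of noncoding genes of the p53 response lie in the same window. Trp53cor1, the long noncoding RNA known as lincRNA-p21, had 1.28 ± 0.18 and 0.90 ± 0.27 CPM, a log2 fold change of -0.51 ± 0.25 SE with an adjusted p of 0.722 by edgeR. Its annotated span contains Srsf3 on the other strand, so reads from any stretch they share cannot be told apart. Dino, a damage-induced RNA named here after its values were seen, stood at 2.04, 1.74, 2.39, 2.17 and 2.57 CPM in the wild-type-labelled and at 2.12, 0.739, 0.9996, 0.519 and 1.89 CPM in the knockout-labelled libraries. Knockout-labelled libraries 2, 3 and 4, the low ones for Cdkn1a, were low for Dino as well. Dino overlaps Cdkn1a, and no source used here states a strand setting for the counting, so the pair cannot be told apart. Its log2 fold change was -0.80 ± 0.35 SE (adjusted p = 0.714 by edgeR). In knockout-labelled library 4 Dino stood at 36.1% and Trp53cor1 at 52.2% of the mean of the other 4 knockout-labelled hearts, while Srsf3 stood at 91.4% and Ppil1 at 101%. Elsewhere in the window Cpne5 stood at 44.9%, Gm64692 at 49.7% and Slc26a8 at 55.4% in that heart, and Pim1 at 129% and Fgd2 at 180%. Counts in that heart were few, at 16 each for Dino and Trp53cor1, 7 for Cpne5, 11 for Slc26a8, 24 for Fgd2 and 65 for Gm64692. What lay behind these low and high values was not tested.

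**Figure D5:**
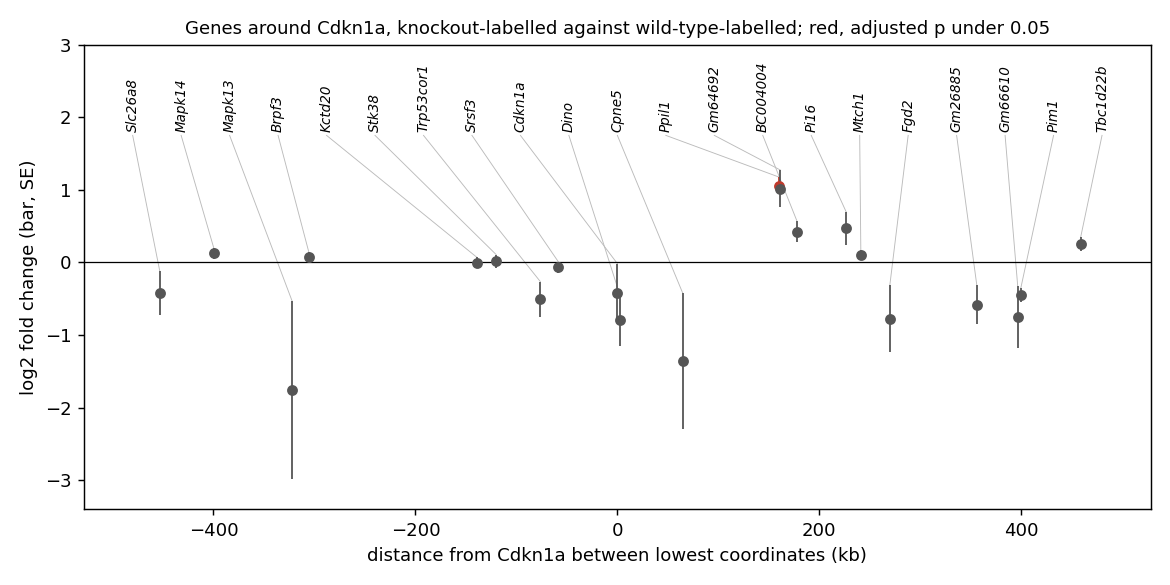
edgeR log2 fold change with SE of each of the 21 tested genes within 500 kb of Cdkn1a, against the distance in kb between the genes' lowest coordinates, with the called gene in red. Ppil1 at 1.06 is the called gene, 160 kb away, and Cdkn1a itself at -0.42 has an SE bar that nearly reaches 0.

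Other genes of the pathway were read in the same fit. A list of 42 regulators, partners and relatives of p53 included damage kinases, ligases, acetyltransferases and ribosomal proteins that bind Mdm2. It also held deacetylases, methyltransferases, p53-binding proteins and other members of the p53 family. Of these 42 genes, 40 were tested, with 20 above 0 and 20 below, a median of 0.00 and 0 called. Under scaling by library totals 32 lay below 0 and 8 above, at a median of -0.10 beside -0.12 over all genes. The damage kinases Atm and Atr had log2 fold changes of -0.06 and 0.00. The smallest unadjusted p values belonged to Huwe1, a ubiquitin ligase that acts on p53 among other proteins, with 252 ± 21.9 and 296 ± 24.9 CPM, and to the acetyltransferase gene Crebbp, with 28.6 ± 2.16 and 32.2 ± 1.53 CPM. They were followed by Ppp1r13l, an inhibitor of p53, with 23.8 ± 2.71 and 27.0 ± 1.57 CPM, and by the checkpoint kinase gene Chek1, with 0.53 ± 0.24 and 0.31 ± 0.18 CPM. None of these 4 passed, with adjusted p between 0.699 and 0.740 by edgeR.

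Of 35 further p53 targets outside the 33, 33 were tested, with 26 below 0 and 7 above and a median of -0.13, where 53.4% of all genes lay below 0. Among these targets 1 was called, against 0.353% of all genes tested. Wild-type-labelled library 1 was the highest heart for 17 of these 35. Without it 21 lay below 0 and 12 above, with a median of -0.06, and without knockout-labelled library 4 as well 19 of 32 tested lay below, with a median of -0.02. The called gene was Polh, the translesion polymerase that copies past ultraviolet damage, which lies on chromosome 17. It fell from 6.54 ± 0.23 to 4.19 ± 0.39 CPM (SD, n = 5 each), a log2 fold change of -0.64 ± 0.10 SE with an adjusted p of 0.0122 by edgeR, and the labels did not overlap. That call was lost without wild-type-labelled library 3 (adjusted p = 0.0586), under scaling by library totals (0.0615) and when low genes were kept (0.1001). Labels that did not overlap were seen in 1.78% of all genes tested. Among these targets the noncoding gene Pvt1 was the other such gene besides Polh, at 2.58 ± 0.32 and 1.52 ± 0.36 CPM. Its log2 fold change of -0.76 ± 0.20 SE did not pass with edgeR (adjusted p = 0.354) and passed with DESeq2 (0.0379). Trp53i11 had 8.22 ± 1.65 and 10.8 ± 2.02 CPM and did not pass (adjusted p = 0.711 by edgeR).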

How the data were processed

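The values are expected counts per gene, deposited by the authors as whole numbers, so no rounding was needed. STAR 2.5.2 mapped the reads on GRCm39, per the labels' protocols. The submitters' processing notes also list RSEM 1.3.0. RSEM splits reads shared by similar genes by estimation, so overlapping genes and close copies are uncertain. No source used here states the annotation release, the strand setting or any trimming. Groups came from the genotype label. The labels do not state a batch, titles differ in form between the groups, and p-values measure only the spread between these samples. A batch that went with the titles cannot be told apart from genotype.

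Symbols, positions and exon lengths came from GENCODE M39, in which 78168 of 78298 identifiers were found. The test was edgeR 4.0.16 (R 4.3.3) quasi-likelihood with TMM factors, the default filter with a minimum count of 10, robust dispersions, no covariate, and Benjamini-Hochberg adjustment over 16700 genes at 0.05. SEs are the absolute log2 fold change over the square root of F, and intervals use its t quantile. CPM used TMM factors. The exact permutation test ran over 252 splits of log2(CPM + 1). The alternatives were other scalings and filters, DESeq2 1.42.0, limma 3.58.1 voom, 1 surrogate variable from sva 3.50.0, mitochondrially encoded genes left out, and libraries left out. The fit was tested on simulated counts. Sequences were read from the GRCm39 genome with pysam 0.24.0.

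The members, lists and alternatives were chosen with earlier results of these data known. The text names the members, Mapk13, protein-coding neighbours of Cdkn1a within 500 kb, the 4 smallest p and any called gene of each pathway list, and, outside that rule, Dino, Gm64692, Atm, Atr and the gene models at response elements.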

Additional observations from a re-analysis of the deposited data

Results flagged for a closer look

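7 values stood apart from the other 4 libraries of their label by Dixon's criterion for a group of 5 (0.71), among 86 groups examined, where chance marks about 1 group in 20. Of these, 6 were members of the p53 target group, 4 of them in wild-type-labelled library 1 and 2 in knockout-labelled library 4. In wild-type-labelled library 1 Phlda3 was high at 18.01 CPM (next 8.67 CPM), Plk3 was high at 3.71 CPM (next 1.60 CPM), Psrc1 was high at 2.09 CPM (next 0.59 CPM), and Fas was low at 17.8 CPM (next 23.4 CPM). Gadd45a was high in knockout-labelled library 4 at 8.56 CPM (next 4.28 CPM), and Mdm4 was low there at 78.7 CPM (next 96.1 CPM). Crebbp was low in knockout-labelled library 1 at 29.6 CPM (next 32.2 CPM). Cdkn1a at 13.7 CPM in knockout-labelled library 4 did not meet the criterion, because the other 4 libraries of that label were themselves spread from 65.9 to 105 CPM.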

How the results depend on the processing

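No member was called under any of the 21 alternatives (lowest adjusted p = 0.196). Over their 691 member values, 46 had the opposite sign to that reported, all uncalled, in 13 of the 33 members. The members' median log2 fold change was -0.20 under scaling by library totals alone. Under the other alternatives it lay within 0.062 of the main value of -0.10. That margin was the SD between hearts of the members' median deviation, pooled over the labels. Over all genes edgeR called 59 and DESeq2 118. Among the further p53 targets, 1 of which was called, the number was 0 under scaling by totals, 0 when low genes were kept and 2 with DESeq2, and 0 to 1 when 1 library was left out. Around Cdkn1a, where 1 gene was called, DESeq2 called 3 and quality-weighted voom 2, and it was 3 without wild-type-labelled library 1 and knockout-labelled library 4, and 1 to 2 when 1 library was left out. When 1 library was left out Mapk13 ran from -2.06 to 2.13, the latter without wild-type-labelled library 1, and with all libraries kept it was 0.65 and 1.796 by voom without and with quality weights and 2.29 with 1 surrogate variable. The causes were not tested. The CPM filter left out 2 members. No paired analysis was possible because the labels give the groups no shared replicate numbers. Low counts limit the precision of Pidd1, Psrc1 and Plk3.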
